A study of Mus musculus with 18 samples.

Results

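The MYC network genes are Myc, Mycn, Mycl, Max, Mxd1, Mxd3, Mxd4, Mxi1, Mnt and Mga. They are 10 of the 16545 genes in the expression table and were taken by name: the rule that picks them uses no measured value, although it was set with earlier results of these data known. RNA was sequenced from B cells purified from the spleens of C57BL/6 mice, before culture (D0) and after 24 h (D1) and 48 h (D2) with LPS, a bacterial lipopolysaccharide that activates B cells. B-CKO mice carried a B-lineage Cre and Zbtb24 loxp/loxp, so that exon 2 of Zbtb24, a zinc finger transcription factor, is removed in B cells. Controls were littermates described in the study's methods as Cre-carrying and Zbtb24 +/+ unless stated otherwise. Each of the 6 groups (control and B-CKO at D0, D1 and D2) held 3 libraries, 1 per mouse. Whether the same mice supplied all days is not given in the sources used here, nor are the age and sex of the mice. Values are FPKM, read fragments scaled to transcript length and to the size of the library, so they are comparable between genes per length but give a share of a library rather than an amount per cell. In these bulk samples fewer cells expressing a gene and less RNA of it per cell cannot be told apart.

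MYC, MYCN and MYCL are basic helix-loop-helix leucine zipper proteins that bind DNA only as heterodimers with MAX, at E-boxes with the core CACGTG, and activate genes of ribosome biogenesis, metabolism and cell-cycle entry. MAX also pairs with MXD1, MXI1 (also known as MXD2), MXD3, MXD4 and MNT, which recruit SIN3 and histone deacetylases and repress the same sites, and with MGA, a large scaffold of the variant Polycomb complex PRC1.6 that silences germline genes. In B cells MYC is induced by mitogens and sets the extent of growth and division, while several MXD proteins are linked to quiescence or differentiation.

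The E-box read by these proteins was looked for in the promoters of the members themselves. RefSeq (GRCm38.p6) promoters spanning 250 bases before to 50 bases after the start site were matched for 9 of the 10 members, with 3 entries for Mxi1 and none used for Myc. CACGTG, which reads the same on both strands, was present in 3 of the 9 (Max, Mxd4 and Mnt), beside 7.15% of all 32851 promoters of this length. The 30 bases around each match are shown 5′ to 3′ along the gene, because the E-box is the sequence these proteins read, with its 6 letters in capitals.
Max: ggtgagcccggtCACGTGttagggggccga
Mxd4: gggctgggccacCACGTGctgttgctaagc
Mnt: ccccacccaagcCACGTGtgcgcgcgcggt
The Max stretch is chr12:76962234-76962263 on the minus strand and its E-box begins 3 bases before the start site. The Mxd4 stretch is chr5:34187912-34187941 on the minus strand, with the E-box 219 bases before the start, and the Mnt stretch is chr11:74830789-74830818 on the plus strand, with the E-box 123 bases before it. A match is a description of the letters and not of binding. In the same windows, on both strands, GGGCGG was present in 8 of 9 members (35.7% of all promoters), CCAAT in Mxd1 and Mxd4 (37.4%), TATAAA in Mycl (13.6%) and TTTNNCGC in Mycn (5.17%).

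The labels were checked first. Zbtb24 was lower in every B-CKO library than in any control library of the same day. It was 12.5 ± 1.90 against 45.4 ± 7.24 FPKM at D0, 10.9 ± 0.677 against 17.6 ± 1.66 at D1 and 10.4 ± 1.07 against 15.2 ± 1.85 at D2 (mean ± SD, n = 3). However, these differences did not pass limma's adjusted threshold (adjusted p = 0.120, 0.0586 and 0.267). Only exon 2 is deleted, and the values are per gene and not per exon. The source of the Zbtb24 fragments left in B-CKO was not tested. The B-cell genes Cd79a (1790 to 2270 FPKM at D0) and Ms4a1 (446 to 632) were high in both genotypes, and 6 of the 7 T-cell genes in the table, the 3 genes of the CD3 complex among them, did not exceed 3.01 FPKM at D0 and 0.42 later. The other T-cell gene, Lck, was 16.2 to 22.7 FPKM at D0, and at D1 and D2 it was lower in B-CKO (8.11 to 9.51) than in control (11.2 to 13.3), and its part in the results was not tested. The libraries' spread was greater at D0 than later, with a median SD across 9997 genes of 0.158 to 0.169 on the log2 scale at D0 and 0.0545 to 0.0852 at D1 and D2. Depth in fragments is unknown; from the steps between low values, relative depth ranged from 0.893 to 0.909 at D0 and from 1.03 to 1.06 at D1 and D2 (1 is the geometric mean).

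Among the 10 genes Myc was the most abundant transcript at D0 and D1, and Max at D2. At D0 the mean control levels ran from Myc (230 FPKM) through Mnt (54.3), Max (53.1), Mxd4 (38.7), Mga (14.2), Mxd1 (10.7), Mxi1 (3.69) and Mxd3 (1.17) to Mycn (0.123) and Mycl (0.10). Mnt, Max and Mxd4 overlapped their neighbours in this order, as did Mga with Mxd1 and Mycn with Mycl, and the other neighbours did not overlap. At D2 the control order was Max (63.3), Myc (52.9), Mxd4 (18.6), Mxd3 (17.8), Mnt (11.7), Mxi1 (7.15), Mga (6.35), Mxd1 (2.27), Mycl (0.33) and Mycn (0.00667), with overlap only between Mxd4 and Mxd3 and between Mxi1 and Mga. Mxd3 thus moved from the lowest of the repressors to a level that overlapped the highest of them.

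**Figure D1:**
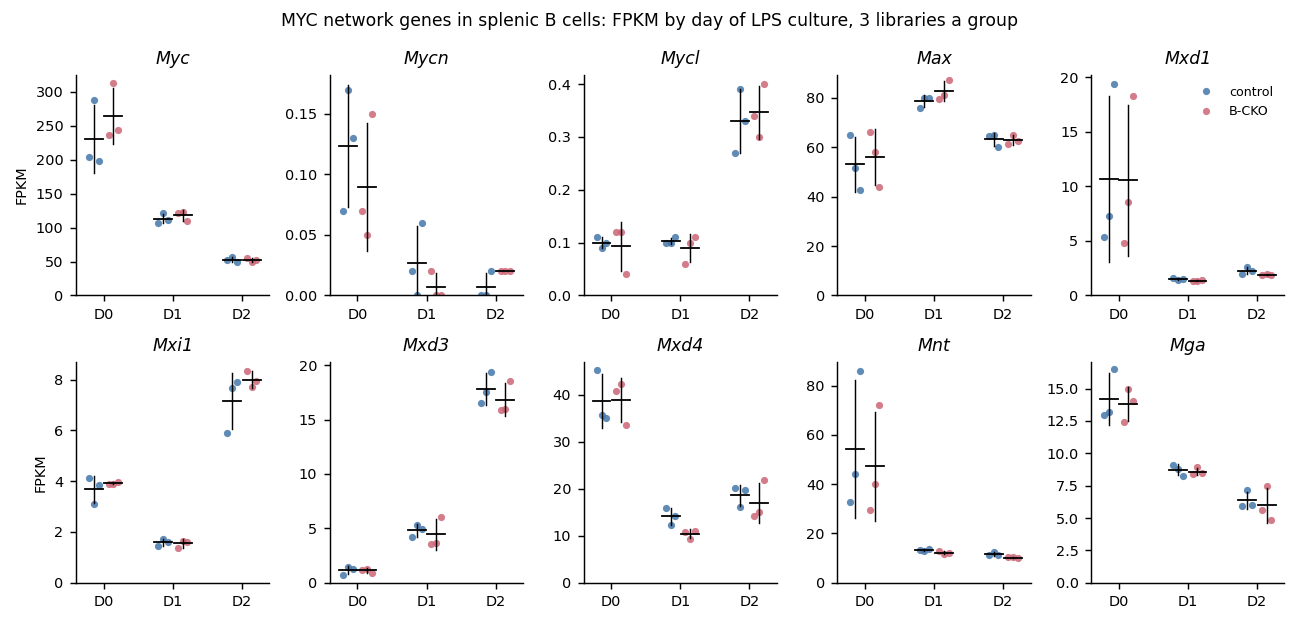
FPKM of the 10 MYC network genes (vertical axes, each from 0) by day, with 1 point per library, blue for control and red for B-CKO, the mean as a horizontal line and the SD as a vertical line (n = 3). Myc falls from 199 to 312 FPKM at D0 to 49.96 to 56.54 at D2, and Mxd3 rises from 0.75 to 1.48 to 15.9 to 19.4.

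The first question was how the network changed during LPS culture within each genotype, tested with limma on log2(FPKM + 1), a scale that understates the fold change of genes with low FPKM. In controls 9 of 10 members were called at D1 against D0 (2 higher, 7 lower), 9 at D2 against D1 (5 higher, 4 lower) and 9 at D2 against D0 (3 higher, 6 lower), beside 57.4%, 44.9% and 56.8% of all genes tested. In B-CKO 9 members (2 higher, 7 lower), 9 (5 higher, 4 lower) and 8 (3 higher, 5 lower) were called, beside 59.8%, 45.7% and 57.6%. With so large a share of all genes called, a call alone sets these 10 genes little apart, and their directions and sizes are described below by role.

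Myc itself fell at each step. The control libraries held 203, 288 and 199 FPKM at D0, 107.4, 120.7 and 111.5 at D1 and 52.2, 56.5 and 50 at D2. The B-CKO libraries held 237, 312 and 244 FPKM at D0, 121.8, 123.2 and 109.2 at D1 and 54.82, 49.96 and 51.63 at D2. The 3 days did not overlap in either genotype, and replicate 2 was the highest at D0 in both. The log2 fold change at D1 against D0 was -0.996 (95% interval -1.36 to -0.63, adjusted p = 0.0016 by limma) in controls and -1.15 (-1.43 to -0.86, adjusted p = 0.00022) in B-CKO. At D2 against D1 it was -1.08 (adjusted p = 4.4e-05) and -1.16 (adjusted p = 1.9e-05), so that at D2 the mean stood 4.35-fold below D0 in controls and 5.07-fold below it in B-CKO.

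The D0 level of Myc was read beside the immediate early genes, which respond within minutes to stimulation or cell handling. All 10 of the listed genes were lower at D1 than at D0 in both genotypes (30.7% and 32.3% of all genes tested were called lower). Their summed level was 3425 to 5087 FPKM at D0, 189 to 226 at D1 and 290 to 331 at D2. In controls Fos averaged 403 FPKM at D0 and 1.17 at D1, Fosb 466 and 0.397, Nr4a1 917 and 17.1, and Dusp1 144 and 2.59. At D0 Myc was highest in replicate 2, as were 7 of the 10 in control and 6 in B-CKO, while 3 (Egr1, Ier2 and Zfp36) were highest in replicate 1 in both genotypes. Their part in the D0 values of Myc was not tested.

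The other MYC paralogues contributed little. Myc made up 99.2% to 99.9% of the summed FPKM of Myc, Mycn and Mycl in every library. Mycn, the paralogue of neural and early progenitor cells, was between 0.05 and 0.17 FPKM at D0, between 0 and 0.06 at D1 and at most 0.02 at D2. Mycn was called lower at D1 than at D0 in both genotypes (log2 fold change -0.13, adjusted p = 0.0304 in controls and -0.11, adjusted p = 0.0332 in B-CKO, limma), but these are changes of about 0.1 FPKM. With a pseudocount of 0.1 in place of 1 the same values gave -0.82 (adjusted p = 0.0247) and -0.80 (adjusted p = 0.0143), so the size of the Mycn change is set by the pseudocount. The Mycn call was lost without control D0 replicate 2 or 3 or control D1 replicate 1 or 2 (adjusted p = 0.0760 to 0.103), and without any 1 of the B-CKO D1 libraries (0.0652 to 0.0974). At D2 against D0 Mycn was called in controls (adjusted p = 0.0083, limma) and in B-CKO only without B-CKO D0 replicate 2 (0.0322, against 0.0577 with it) or under some of the other settings tried.

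Mycl, a paralogue expressed in dendritic and some epithelial cells, was the only MYC gene that rose. It was 0.09 to 0.11 FPKM in controls at D0 and 0.10 to 0.11 at D1, then 0.27, 0.39 and 0.33 at D2. In B-CKO it was 0.12, 0.12 and 0.04 FPKM at D0, 0.06, 0.10 and 0.11 at D1 and 0.34, 0.30 and 0.40 at D2. All D2 libraries were above all earlier ones, and the log2 fold change at D2 against D1 was 0.27 in controls (adjusted p = 0.0010, limma) and 0.30 in B-CKO (adjusted p = 0.00046), at levels under 0.5 FPKM. With a pseudocount of 0.1 it was 1.07 (adjusted p = 0.0011) and 1.24 (adjusted p = 0.00081), and the ratio of mean FPKM was 3.19-fold and 3.85-fold.

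Max, the shared partner, moved against Myc at D1. Control libraries held 65.0, 51.5 and 42.8 FPKM at D0, 75.7, 80.0 and 80.0 at D1 and 64.6, 65.0 and 60.3 at D2. B-CKO libraries held 66.3, 58.1 and 43.9 FPKM at D0, 79.4, 81.3 and 87.1 at D1 and 61.2, 65.0 and 62.4 at D2. Every D1 library was above every D0 and D2 library, while D0 and D2 overlapped and the D0 libraries ran in the same order of replicates in both genotypes. The rise at D1 was 0.58 in controls (log2 fold change, 95% interval 0.22 to 0.93, adjusted p = 0.0146, limma) and 0.57 in B-CKO (0.21 to 0.92, adjusted p = 0.0146). The call in controls was lost without control D0 replicate 2 (adjusted p = 0.0525), control D1 replicate 2 (0.0518) or control D1 replicate 3 (0.0512), and that in B-CKO without B-CKO D1 replicate 3 (0.0551) or with values rescaled to TPM (log2 fold change 0.41, adjusted p = 0.0506). From D1 to D2 Max fell by 0.31 and 0.39 on the log2 scale. At D2 it was not called against D0 (log2 fold change 0.27, adjusted p = 0.168 in controls and 0.18, adjusted p = 0.337 in B-CKO, limma), although without control D0 replicate 1 the control value was 0.42 (adjusted p = 0.0119). The ratio of Max to Myc FPKM was 0.179 to 0.320 at D0, 0.651 to 0.798 at D1 and 1.12 to 1.30 at D2 across both genotypes, so it did not overlap between days.

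The repressors fell into 3 patterns: Mnt and Mxd1 dropped after D0 and stayed low, Mxd4 and Mxi1 dropped and came back in part or in full, and Mxd3 rose throughout. Mnt, the most widely expressed of the MAX-binding repressors, held 32.9, 44.1 and 85.9 FPKM in controls at D0, 13.4, 13.1 and 13.8 at D1 and 11.2, 12.6 and 11.3 at D2. In B-CKO it held 29.5, 40.0 and 72.1 FPKM at D0, 12.84, 11.71 and 11.95 at D1 and 10.3, 10.3 and 10.1 at D2. Replicate 3 was highest and replicate 1 lowest at D0 in both genotypes, and no later library reached a D0 value. Mnt fell by 1.82 (95% interval of the log2 fold change -2.62 to -1.03, adjusted p = 0.0035, limma) in controls and by 1.78 (-2.50 to -1.05, adjusted p = 0.0023) in B-CKO at D1. A further small fall to D2 of 0.18 in controls (adjusted p = 0.0354) and 0.23 in B-CKO (adjusted p = 0.0098) was called. In controls that second call was lost when any of control D1 replicate 1, 2 or 3 or control D2 replicate 1 or 3 was left out (adjusted p = 0.0673 to 0.112).

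Mxd1, an MXD protein linked to terminal differentiation of myeloid and epithelial cells, showed the same D0 order of replicates as Mnt. It was 5.35, 7.28 and 19.3 FPKM in controls at D0, 1.62, 1.45 and 1.49 at D1 and 1.93, 2.59 and 2.28 at D2. B-CKO libraries held 4.82, 8.56 and 18.3 FPKM at D0, 1.32, 1.31 and 1.40 at D1 and 1.89, 1.94 and 1.87 at D2. The D0 values of Mxd1 spread almost 4-fold within a genotype, yet all lay above all later ones. Replicate 3 was also the highest at D0 in control and B-CKO for the red-cell genes Hba-a1 (14.0 and 22.7 FPKM) and Hbb-bs (12.5 and 22.8) and the myeloid gene S100a8 (0.73 and 1.24). The red-cell gene Hbb-bt and the myeloid gene Lyz2 were instead highest in replicate 1 in controls. The part of other cell types in the D0 values of Mnt and Mxd1 was not tested. The log2 fold change of Mxd1 at D1 against D0 was -2.02 (95% interval -3.04 to -1.01, adjusted p = 0.0064, limma) in controls and -2.13 (-3.12 to -1.14, adjusted p = 0.0041) in B-CKO, followed by a rise to D2 of 0.37 (adjusted p = 0.0121) and 0.31 (adjusted p = 0.0038), the latter 0.47 with a pseudocount of 0.1. At D2 Mxd1 remained below D0 in both, but the control call was lost without control D2 replicate 1 (adjusted p = 0.0516).

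Mxd4, an MXD protein of quiescent and differentiating cells, was 45.2, 35.7 and 35.2 FPKM in controls at D0, 15.8, 12.3 and 14.3 at D1 and 20.1, 16.0 and 19.7 at D2. The B-CKO values were 40.7, 42.4 and 33.6 FPKM at D0, 10.8, 9.39 and 11.1 at D1 and 14.1, 15.0 and 21.9 at D2. At D1 the mean was 2.74-fold below D0 in controls (log2 fold change -1.39, adjusted p = 0.00021, limma) and 3.73-fold below it in B-CKO (-1.80, adjusted p = 2.4e-05). It then rose 1.32-fold (log2 fold change 0.38, adjusted p = 0.0322) and 1.63-fold (0.63, adjusted p = 0.0150) to D2 and stayed below D0. The control rise was lost without control D1 replicate 2 or 3 or control D2 replicate 1 or 3 (adjusted p = 0.0821 to 0.106), and the B-CKO rise without B-CKO D1 replicate 2 (0.0640).

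Mxi1, a repressor of MYC activity also linked to hypoxia and mitochondrial control, fell and then passed its starting level. It was 4.12, 3.09 and 3.85 FPKM in controls at D0, 1.44, 1.72 and 1.61 at D1 and 5.88, 7.67 and 7.89 at D2. In B-CKO it was 3.90, 3.88 and 3.96 FPKM at D0, 1.36, 1.66 and 1.62 at D1 and 8.35, 7.70 and 7.95 at D2. No day overlapped another. The rise from D1 to D2 was 4.49-fold in controls (log2 fold change 1.65, adjusted p = 8.6e-05, limma) and 5.17-fold in B-CKO (1.82, adjusted p = 1.2e-05), and D2 exceeded D0 by 1.94-fold (adjusted p = 0.0040) and 2.04-fold (adjusted p = 0.00026).

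Mxd3, the MXD protein described in proliferating cells, rose at both steps. It was 0.75, 1.48 and 1.29 FPKM in controls at D0, 4.19, 5.33 and 4.94 at D1 and 16.5, 17.6 and 19.4 at D2. B-CKO values were 1.21, 1.30 and 0.88 FPKM at D0, 3.59, 3.69 and 6.03 at D1 and 15.9, 16.0 and 18.6 at D2. The days did not overlap, and the mean at D2 was 15.2-fold that at D0 in controls (log2 fold change 3.13 on the FPKM + 1 scale, adjusted p = 1.7e-05, limma) and 14.9-fold in B-CKO (3.07, adjusted p = 7.3e-06). The 3′ end of Mxd3 overlaps Prelid1 (chr13:55322055-55325272) in RefSeq, and whether counting used the strand is not given in the sources used here.

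Mga, the PRC1.6 scaffold, declined at both steps. It was 12.9, 13.2 and 16.5 FPKM in controls at D0, 9.08, 8.82 and 8.25 at D1 and 5.91, 7.14 and 6.01 at D2. In B-CKO it was 12.4, 15.0 and 14.0 FPKM at D0, 8.39, 8.92 and 8.45 at D1 and 5.59, 7.46 and 4.87 at D2. No day overlapped another in either genotype, and the log2 fold change at D2 against D0 was -1.04 in controls (adjusted p = 0.00057, limma) and -1.10 in B-CKO (adjusted p = 0.0010). The B-CKO fall from D1 to D2 (-0.48, adjusted p = 0.0228) was lost without B-CKO D1 replicate 1, 2 or 3 or B-CKO D2 replicate 1 (adjusted p = 0.0636 to 0.0826).

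**Figure D2:**
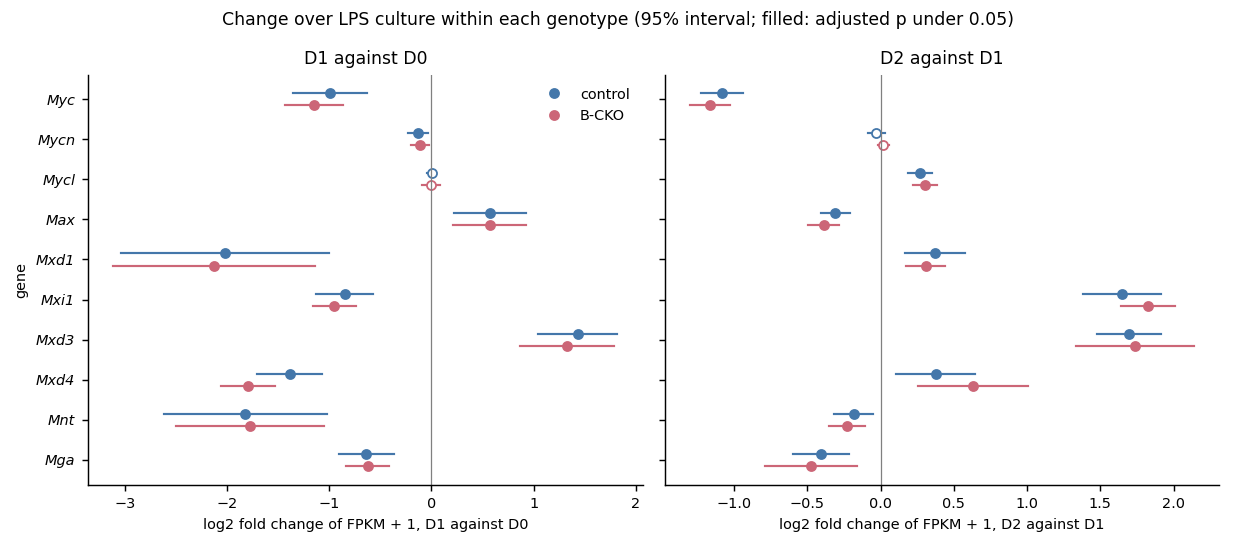
Log2 fold change of FPKM + 1 (horizontal axes) of each gene at D1 against D0 and at D2 against D1, with 95% intervals, blue for control and red for B-CKO; filled points had an adjusted p under 0.05 by limma. At D1 7 genes lie left of 0 and filled in each genotype, while Max and Mxd3 lie right of it, at 0.58 and 1.43 in controls.

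Since these repressors compete with MYC for MAX, Myc was set beside the summed FPKM of Mxd1, Mxi1, Mxd3, Mxd4 and Mnt in each library, as a description with no test. The sum was 108 ± 32.1 FPKM (SD, n = 3) in controls at D0, 35.5 ± 1.38 at D1 and 57.6 ± 2.68 at D2, and 102 ± 24.8, 29.9 ± 2.17 and 54.0 ± 5.56 in B-CKO. The ratio of Myc to this sum was 2.30, 3.14 and 1.37 in the control libraries at D0, 2.95, 3.56 and 3.09 at D1 and 0.939, 1.00 and 0.825 at D2. In B-CKO it was 2.95, 3.25 and 1.90 at D0, 4.07, 4.44 and 3.40 at D1 and 1.08, 0.982 and 0.855 at D2. All D2 ratios lay below all others, while D0 and D1 overlapped in controls. At D1 the mean of Myc was 50.8% below D0 in controls, and the summed repressor transcripts had fallen by more.

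The make-up of the sum also shifted. Mnt supplied 36.8% to 59.0% of it at D0 and 36.7% to 42.9% at D1, but 16.8% to 22.4% at D2. Mxd3 supplied 0.683% to 1.62% at D0, 11.5% to 18.8% at D1 and 29.7% to 32.0% at D2. Mxd4 supplied 24.2% to 51.2%, 33.8% to 43.4% and 27.9% to 36.2%. These shares rest on transcripts and say nothing of protein.

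**Figure D3:**
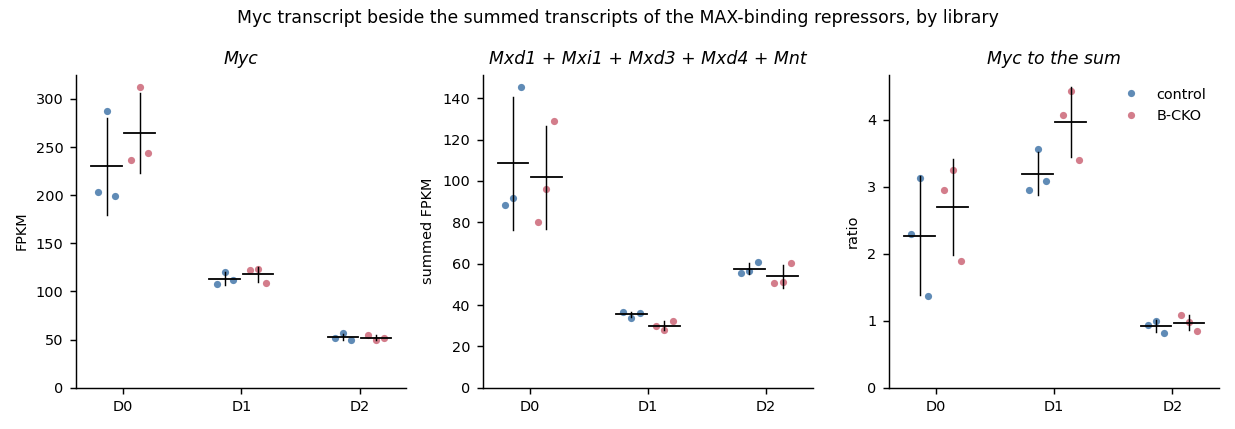
Myc FPKM, the summed FPKM of the 5 repressors and the ratio of Myc to that sum (vertical axes, from 0) by day, with 1 point per library, blue for control and red for B-CKO, the mean as a horizontal line and the SD as a vertical line (n = 3). The ratio is 2.95 to 4.44 at D1 and 0.825 to 1.08 at D2.

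Genes known to be activated by MYC did not follow the Myc transcript from D0 to D1. Of 30 such genes 29 were higher at D1 than at D0 in both genotypes (26.7% and 27.5% of all genes tested were called higher), with a median log2 fold change of 2.05 in controls and 2.08 in B-CKO, and 1, the telomerase gene Tert, was lower. In controls the cyclin gene Ccnd2 rose from 14.1 to 190 FPKM, the spermidine synthase gene Srm from 26.1 to 303, the Ran exchange factor gene Rcc1 from 8.74 to 78.5 and the chaperonin gene Hspd1 from 70.7 to 562, all called by limma. From D1 to D2, as Myc fell again, 25 of the 30 fell in controls and 27 in B-CKO (24.8% and 24% of all genes were called lower), with medians of -0.60 and -0.75. Polr1b, a subunit of RNA polymerase I, fell from 42.5 to 19.1 FPKM, Mybbp1a from 293 to 145 and Ccnd2 from 190 to 93.1, whereas the glycolytic gene Ldha rose from 635 to 1921. At D2 28 of the 30 in controls and 27 in B-CKO were still called above D0 (26.5% and 27.0% of all genes).

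The 10 genes known as repressed by MYC moved mostly the other way. At D1 6 of 10 were lower in both genotypes, with 1 higher in controls and 2 higher in B-CKO (of all genes 30.7% and 32.3% were called lower and 26.7% and 27.5% higher). The quiescence factor gene Klf2 fell from 838 to 72.3 FPKM in controls, Gadd45a from 58.7 to 4.50, Txnip, which restrains glucose uptake, from 343 to 39.5, and Ndrg1 from 4.31 to 0.553. At D2 against D1 8 of 10 in controls and 9 in B-CKO were higher (20.1% and 21.7% of all genes), among them the cell-cycle inhibitor genes Cdkn1b (21.5 to 49.8 FPKM in controls), Cdkn2c (9.62 to 22.0) and Cdkn1a (3.28 to 7.39), and Ndrg1 (0.553 to 7.21). Zbtb17, the MIZ-1 partner of MYC in repression, fell by 0.37 and 0.39 at D1 on the log2 scale and was not called from D1 to D2.

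**Figure D4:**
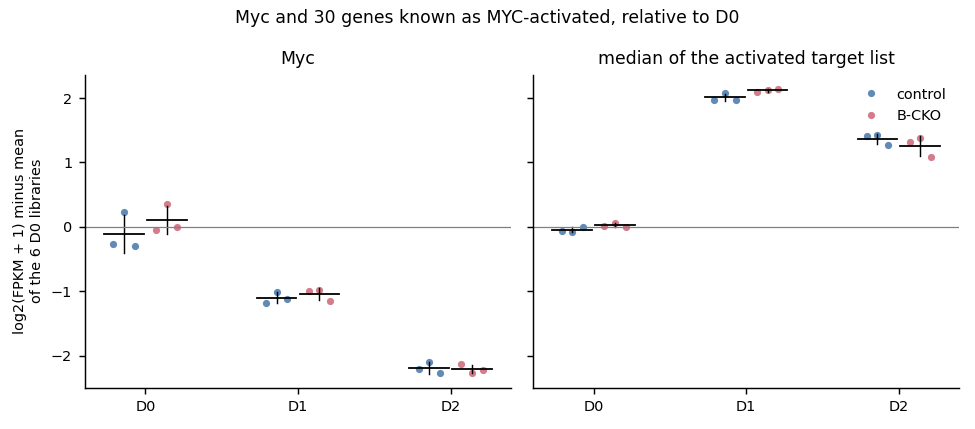
Log2(FPKM + 1) minus the mean of the 6 D0 libraries (shared vertical axis) for Myc and for the median of 30 genes known to be activated by MYC, with 1 point per library, blue for control and red for B-CKO, the mean as a horizontal line and the SD as a vertical line (n = 3). At D1 Myc lies between -1.17 and -0.98 while the target median lies between 1.97 and 2.13.

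Cofactors and related factors were mixed. Their counts stand beside 26.7% of all genes called higher and 30.7% called lower in controls at D1 (27.5% and 32.3% in B-CKO), and 24.8% called lower from D1 to D2 (24% in B-CKO). Of 14 MYC coactivator genes 8 were higher and 5 lower in controls at D1 (8 and 4 in B-CKO), led by the AAA+ ATPase genes Ruvbl2 (28.0 to 132 FPKM in controls) and Ruvbl1 (26.0 to 105), and 11 then fell to D2 (10 in B-CKO), led by the acetyltransferase gene Kat2a (51.6 to 30.5). Of 10 SIN3 and deacetylase genes that serve the MXD proteins 6 were higher and 2 lower at D1 in both genotypes, including Rbbp7 (49.0 to 201 FPKM in controls) and Hdac2 (22.0 to 65.4), while Sap30 rose from D1 to D2 (14.2 to 29.7). Of 12 genes of the MGA complex 7 were higher and 3 lower in controls at D1 (7 and 4 in B-CKO), led by the E2F partner gene Tfdp1 (11.2 to 111 FPKM) and E2f6 (3.31 to 16.1), against the fall of Mga itself. Of 10 germline genes that this complex silences, 9 were tested at D1, where 2 were higher in controls (3 higher and 2 lower in B-CKO), namely Zcwpw1 (8.28 to 15.96 FPKM) and Tdrkh (0.36 to 1.04), a share near that of all genes, and the 10 summed to 7.21 to 18.6 FPKM in all libraries.

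Of 14 genes that act on MYC protein stability 5 were higher and 4 lower at D1 in both genotypes, shares near those of all genes. Among those higher were the stabilizing kinase gene Aurka (3.19 to 23.1 FPKM in controls), the PP2A inhibitor gene Cip2a (1.40 to 11.6) and the ubiquitin ligase gene Skp2 (1.28 to 5.81). Of the 3 genes of the parallel MLX branch, Mlxip was called lower at D1 in both genotypes (44.7 to 17.0 FPKM in controls), as was Mlxipl in B-CKO at under 0.2 FPKM.

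The genes most like each member over the 18 libraries, by Pearson correlation of log2(FPKM + 1) among 9996 genes, were Arhgap39, Tesk1 and Washc2 for Myc (r = 0.986, 0.985 and 0.983), Med19, Dcun1d2 and Snx27 for Max (0.966, 0.964 and 0.962) and Nsd1, Frs2 and Vps13b for Mga (0.994, 0.992 and 0.992). Among repressors they were Vps18, Stk11ip and Cd274 for Mnt (0.994, 0.994 and 0.993), Flcn, Tgfb3 and Tollip for Mxd1 (0.988, 0.986 and 0.986) and Serpinb1a, Cd38 and Slc15a4 for Mxd4 (0.984, 0.982 and 0.981). For Mxi1 they were Bnip3l, H2-T-ps and Atg9a (0.992, 0.988 and 0.982), and for Mxd3 Pfkl, Pif1 and Hmmr (0.991, 0.990 and 0.990), of which Pif1 and Hmmr are genes of dividing cells. Within the network Myc ran with Mga (r = 0.938) and opposite to Mxd3 (r = -0.973). These are descriptions over libraries that share 3 days, so genes with the same day pattern correlate.

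The second question was whether loss of Zbtb24 altered the network. None of the 10 members was called between B-CKO and control on any day by limma, beside 0 of 15641 genes (0%) at D0, 15 of 15104 (0.0993%) at D1 and 7 of 15210 (0.0460%) at D2. At an unadjusted p under 0.05, 0 members passed at D0, 2 at D1 (Mxd4 and Mnt) and 1 at D2 (Mnt), beside 2.00%, 16.3% and 7.71% of all genes. Myc in B-CKO was 1.15-fold control at D0 (log2 fold change 0.21, 95% interval -0.23 to 0.65), 1.04-fold at D1 (0.06, -0.08 to 0.20) and 0.985-fold at D2 (-0.02, -0.16 to 0.12), with overlapping libraries on every day. The adjusted p was 1, 0.685 and 0.943.

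Mxd4 gave the largest genotype difference. At D1 the B-CKO libraries (10.8, 9.39 and 11.1 FPKM) all lay below the control libraries (15.8, 12.3 and 14.3), a mean 26.2% lower (log2 fold change -0.40, 95% interval -0.63 to -0.17, unadjusted p = 0.0048, adjusted p = 0.134, limma). With genes below a mean of 1 FPKM left out, which tests 9711 genes in place of 15104, Mxd4 at D1 was called (adjusted p = 0.0345), beside 388 genes (4.0%). At D0 (log2 fold change 0.01) and D2 (-0.14, 95% interval -0.54 to 0.25) the genotypes overlapped.

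Mnt and Mxd1 were the other members lower in every B-CKO library than in any control library at D1, beside 11.7% of all genes. Mnt was 9.32% lower (log2 fold change -0.13, 95% interval -0.24 to -0.02, adjusted p = 0.219, limma) and Mxd1 11.6% lower (-0.10, -0.23 to 0.02, adjusted p = 0.367). At D2 Mnt was again lower in all 3 B-CKO libraries, by 12.6% (log2 fold change -0.18, 95% interval -0.32 to -0.03, adjusted p = 0.543), beside 6.24% of all genes. The intervals at D0 were wide for Mnt (-1.24 to 0.88) and Mxd1 (-1.39 to 1.39).

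At D0, where same-numbered libraries of the genotypes deviated together, the comparison was also read within the 3 pairs. Myc and Max were higher and Mnt was lower in B-CKO in all 3 pairs, so 3 of the 10 members had one direction throughout, beside 21.6% of all genes. With the replicate number as a block the interval was 0.07 to 0.36 for Myc (unadjusted p = 0.0149, adjusted p = 0.837, limma), -0.30 to -0.06 for Mnt (unadjusted p = 0.0131, adjusted p = 0.812) and -0.05 to 0.21 for Max (adjusted p = 0.908). No member was called, and 2 passed an unadjusted p under 0.05, beside 5.70% of all genes. The interval of Mxd1 narrowed to -0.25 to 0.25.

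For the rest the 95% intervals at D1 were -0.03 to 0.17 for Max, -0.54 to 0.29 for Mxd3, -0.19 to 0.14 for Mxi1 and -0.14 to 0.10 for Mga, on the log2 scale. At D2 they were -0.12 to 0.10 for Max, -0.27 to 0.12 for Mxd3, -0.10 to 0.41 for Mxi1 and -0.43 to 0.25 for Mga. Mycn and Mycl, at levels of at most 0.40 FPKM, differed by less than 0.05 on the log2(FPKM + 1) scale on every day, where low values are pressed towards 0. With a pseudocount of 0.1 the differences were -0.24, -0.23 and 0.18 for Mycn and -0.08, -0.11 and 0.06 for Mycl at D0, D1 and D2, none of them called. Of the related lists, none of the 30 activated targets, the 10 repressed targets or the other cofactor genes was called between genotypes on any day. For the activated targets the median difference on the log2 scale was 0.07 at D0, 0.08 at D1 and -0.07 at D2, and for the repressed targets -0.05, -0.16 and 0.01.

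**Figure D5:**
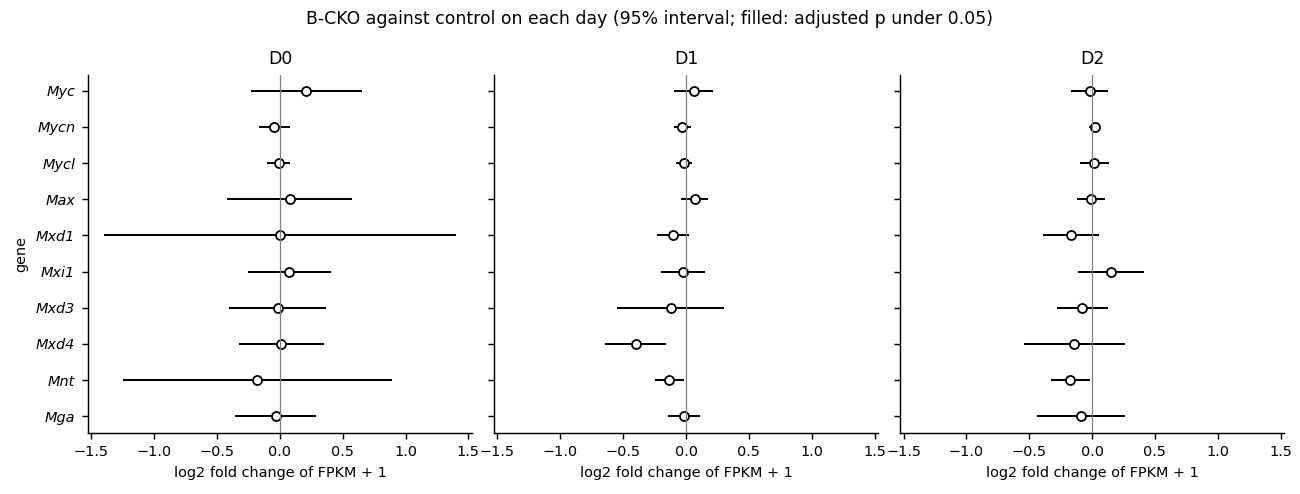
Log2 fold change of FPKM + 1 in B-CKO against control (shared horizontal axis) for each gene at D0, D1 and D2, with 95% intervals; points are open because no gene had an adjusted p under 0.05 by limma. The D0 intervals of Mxd1 and Mnt are the widest, and at D1 Mxd4 lies at -0.40 with an interval that does not reach 0.

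The third question was whether the change over time differed between genotypes. No member was called for the D0 to D1 change or the D1 to D2 change (0% of 16182 and of 15844 genes). At an unadjusted p under 0.05, 1 member passed in the former and 0 in the latter, beside 2.89% and 7.31% of all genes. That member was Mxd4, whose fall from D0 to D1 was greater in B-CKO by 0.41 on the log2 scale (95% interval of the difference -0.81 to -0.01, unadjusted p = 0.0446, adjusted p = 1, limma). For Myc the difference in the change was -0.15 (95% interval -0.61 to 0.31) from D0 to D1 and -0.08 (-0.28 to 0.12) from D1 to D2. The fit of the D0 to D1 change took no account of the pairing of same-numbered libraries between genotypes at D0.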

How the data were processed

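RNA-seq values of 18 mouse splenic B-cell libraries were deposited by the authors as FPKM with 2 decimals per NCBI gene ID. Their methods and processing notes name Bowtie2, BWA, Cufflinks, RSEM and the build mm10. Counts, the annotation and strand use are not given in the sources used here. The labels and the methods name different sequencers. Of 16545 IDs, 16512 matched RefSeq symbols (GRCm38.p6).

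Differences were tested with limma 3.58.1 (R 4.3.3; lmFit, eBayes with trend) on log2(FPKM + 1), over genes above 0 in any library of the comparison, with only those libraries in the fit, two-sided, Benjamini-Hochberg adjusted over all genes and called at 0.05. There were 11 comparisons: 6 over time, 3 between genotypes and 2 of their difference. Fits were tested on simulated data. Replicate numbers paired the genotypes at D0 (correlation of same-numbered deviations 0.854, 0.468 and 0.789 across 9997 genes) and B-CKO D2 with D1 (0.126, 0.183 and 0.117). No other comparison passed the cut, which all 3 correlations had to exceed. B-CKO against control at D1 fell just short of it, at 0.103, 0.200 and 0.0910. All 10 members were named. From each of 17 lists up to 4 called, non-overlapping genes with the largest changes were named, and the 3 most correlated genes per member above 1 FPKM. Members and lists were chosen with earlier results of these data known. Of 159 listed symbols 3 have no row. Figures were made with matplotlib 3.10.9. Some results are not reported here.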

Additional observations from a re-analysis of the deposited data

How the results depend on the processing

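Directions of the members' called time changes held under a pseudocount of 0.1, TPM, median-of-ratios scaling, the replicate block, one fit of all 18 libraries, group weights and every left-out library. They also held under the 1 FPKM filter, which left out Mycn and Mycl and tested the other 8 members. Calls changed as follows, beside those lost without a library that the results give. One fit of all 18 libraries, which shares the wide D0 spread, called 5 members in place of 9 for control D2 against D1, losing Max (adjusted p = 0.101, limma), Mxd1 (0.535), Mxd4 (0.0814) and Mnt (0.704), and 7 in place of 9 for B-CKO D2 against D1, losing Mxd1 (0.601) and Mnt (0.615). The 1 FPKM filter called 1 in place of 0 between genotypes at D1. With the replicate block Mnt in control D2 against D1 (adjusted p = 0.0778, limma) and Mycn in B-CKO D1 against D0 (0.0504) were lost, although replicate numbers did not pair those libraries; where they did, the block changed no member's call. Group weights lost Mycn in control D1 against D0 (0.0662), and Mycn in B-CKO D2 against D0 was gained with a pseudocount of 0.1, TPM, one fit of all libraries and group weights. Genes called between genotypes at D1 were 15, but 46 with a pseudocount of 0.1, 388 with the filter, 5 with the block and 5 to 8 without 1 library; at D2 they were 7, 29 with the filter, 3 with the block, 11 in one fit of all libraries and 0 to 6 without 1 library; at D0 they were 0, 2 with the filter and 23 in one fit of all libraries. TPM moved the median log2 fold change of genes above 1 FPKM from -0.01 to -0.21 in control D2 against D0, so falls are larger and rises smaller on that scale. Signs turned, all in uncalled values, with TPM for Mycl in control D1 against D0 (-0.020), Max in B-CKO D2 against D0 (-0.036), and Mxd1 (-0.012) and Mxd4 (-0.0019) between genotypes at D0, and with median-of-ratios scaling for Mga at D1 (0.00040). The Myc to repressor ratio without Mnt was 4.35, 5.15 and 1.16 in controls and 4.85, 6.74 and 1.21 in B-CKO; with Mga added it was 2.57 and 0.829 in controls at D1 and D2 and 3.08 in B-CKO at D1.

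Leaving out 1 library turned the sign only of uncalled values, whose ranges were as follows. For D1 against D0, Mycl ranged from -0.0022 to 0.011 in controls and from -0.039 to 0.016 in B-CKO. Between genotypes at D0 the ranges were Mycl -0.027 to 0.026, Max -0.064 to 0.24, Mxd1 -0.46 to 0.50, Mxd3 -0.17 to 0.084, Mxd4 -0.052 to 0.13, Mxi1 -0.020 to 0.14, Mnt -0.53 to 0.20 and Mga -0.091 to 0.072. At D1 they were Mycl -0.031 to 0.0022, Mxi1 -0.067 to 0.029 and Mga -0.054 to 0.0080, and at D2 Myc -0.059 to 0.028, Mycl -0.015 to 0.051, Max -0.044 to 0.010 and Mga -0.24 to 0.026. For the genotype difference in the D0 to D1 change they were Mycn -0.014 to 0.055, Mycl -0.044 to 0.012, Max -0.17 to 0.13, Mxd1 -0.60 to 0.35, Mxd3 -0.30 to 0.045, Mnt -0.34 to 0.40 and Mga -0.091 to 0.072, and in the D1 to D2 change Mxd1 -0.14 to 0.0082, Mxd3 -0.064 to 0.24, Mnt -0.074 to 0.0080 and Mga -0.22 to 0.045. Without 1 library the uncalled genotype difference of Myc at D0 (0.21) ranged from 0.086 (without B-CKO D0 replicate 2) to 0.38 (without control D0 replicate 2), and that of Mxd4 at D2 (-0.14) from -0.33 (without B-CKO D2 replicate 3) to -0.030 (without B-CKO D2 replicate 1). For Myc it ranged from 0.023 to 0.11 at D1, and the genotype difference in its change from -0.32 to -0.026 (D0 to D1) and from -0.13 to -0.032 (D1 to D2). Depth is unknown, so no limit of detection was set for Mycn or Mycl.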

Other observations

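Genes of plasma cells, the antibody-secreting cells that B cells can become, were read beside the network, and no link to it was tested. Of 5 such genes 4 were higher at D2 than at D1 in controls and 3 were higher and 1 lower in B-CKO (of all genes 20.1% were called higher in controls, and 21.7% higher and 24% lower in B-CKO), and the 5 summed to 194 to 316 FPKM in controls and 229 to 250 in B-CKO at D2, against 138 to 154 and 135 to 139 at D1 and 251 to 420 and 242 to 420 at D0. The sum joins genes that moved in opposite directions, and Irf4 was its largest part at D0. Across both genotypes Prdm1 was 1.41 to 3.79 FPKM at D0 and 12.35 to 22.25 at D2, and Xbp1 35.8 to 49.7 and 88.8 to 145. Irf4 was 118 to 266 FPKM at D0 and 52.4 to 65.9 at D2, Jchain 70.9 to 111 and 36.8 to 78.8, and Sdc1 2.89 to 6.11 and 1.52 to 3.22.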
